A study of Homo sapiens with 4 samples.

Results

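WLS, also called Wntless and listed under the older symbol FLJ23091 in the gene table issued with the study, encodes a multi-pass membrane protein that carries Wnt ligands from the secretory pathway to the cell surface. It was represented by 1 probe (GI_31542744-S) of the 47289 probes on the arrays and was followed here across all 12 arrays of the series. The gene was chosen because it appears in a list of genes that changed in these same comparisons. Its levels and differences are therefore given as a description, without a test.

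The arrays were 1-colour Illumina BeadChips hybridised with labelled cRNA from NCCIT cells, a human embryonal carcinoma line that grows as undifferentiated, pluripotent cells. There were 4 groups with 3 biological replicates each, harvested at day 2.5 after transfection according to the labels, while the study's methods text gives a slightly earlier day. The mock group received the Hyperfect transfection reagent alone. The other groups received the same reagent with esiRNA, a pool of short interfering RNAs cut by RNase III from a long double-stranded RNA, against OCT4, NANOG or SOX2, the transcription factors that hold such cells in the undifferentiated state. No array of cells given an unrelated esiRNA was part of the comparison, so an effect common to any esiRNA and an effect of the targeted factor cannot be told apart from the mock group alone. All arrays came from 1 cell line, and in such bulk RNA a smaller share of cells expressing a gene and less RNA per cell cannot be told apart.

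Wnt proteins are lipid-modified in the endoplasmic reticulum by the acyltransferase PORCN, and the modified ligand is then bound by WLS and taken to the plasma membrane. After release of the ligand, WLS is returned from endosomes by the retromer complex for another round. Without WLS a cell makes Wnt proteins but hardly secretes them, and in the early mouse embryo the gene is required for mesoderm formation.

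The annotated WLS gene spans chr1:68098459-68232546 on the minus strand of GRCh38.p14, a length of 134088 bases, with 4 RefSeq transcripts. The 250 bases in front of the start site of its outermost transcript, chr1:68232547-68232796, are shown 5′ to 3′ on the gene's strand because this stretch holds an uncommonly long uninterrupted run of purines, marked in capitals.
WLS upstream region: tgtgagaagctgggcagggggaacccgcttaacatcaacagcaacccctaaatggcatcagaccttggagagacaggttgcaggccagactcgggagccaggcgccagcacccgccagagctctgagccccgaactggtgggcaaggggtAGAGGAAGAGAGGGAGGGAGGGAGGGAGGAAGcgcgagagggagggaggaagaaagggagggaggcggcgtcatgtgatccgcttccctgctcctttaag
The run is 32 bases long, from 100 to 69 bases before the start site, and a purine or pyrimidine run at least as long was found in 0.729% of 35116 RefSeq windows of the same length. The GC content of the WLS window was 62% against a median of 58% over all windows, and it held 10 CpG dinucleotides against a median of 11. The letters ATGCAAAT (the octamer bound by POU factors), ACAATG (a core bound by SOX factors) and ATCAAAG (a core bound by TCF and LEF factors) were searched on both strands, and 0 matches were found in the WLS window. Over all windows these letters were present in 1.63%, 9.29% and 2.26%, respectively. This says only that the letters are not in this window.

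The treatments themselves are defined by the transcript stretches that the esiRNA pools were made from, and the primer pairs that bound those stretches are shown forward first.
OCT4 forward: gagaaggagaagctggagca
OCT4 reverse: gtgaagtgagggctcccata
SOX2 forward: catcacccacagcaaatgac
SOX2 reverse: ggaaagttgggatcgaacaa
NANOG 1 forward: aactggccgaagaatagcaa
NANOG 1 reverse: ctcgctgattaggctccaac
NANOG 2 forward: gactgagctggttgcctcat
NANOG 2 reverse: tctggaaccaggtcttcacc
For NANOG 2 amplicons are listed, and which of them was used for the arrays is not given in the sources used here.

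WLS was close to the array background in mock cells, clearly above background but dim in the NANOG knock-down, and among the most strongly elevated probes in the OCT4 and SOX2 knock-downs. Its raw signal, the mean brightness of the beads that carry the probe, was 129.5, 139.3 and 122.2 on the mock arrays. On the same arrays the mean of the negative-control beads, inferred from the deposited detection scores, was 100.1, 93.1 and 95.2. The mock signals thus stood 3.26, 5.49 and 3.25 SD of the negative controls above their mean, and the detection p-value, the share of negative controls at least as bright, was at most 0.00264. WLS was therefore detected on all 3 mock arrays, but little above what unspecific binding gave.

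In the NANOG knock-down the negative-control means were 104.1, 100.8 and 98.4. The raw WLS signal there was 209, 212 and 203, or 11.4, 12.5 and 12.1 SD of the negative controls above them. In the OCT4 knock-down it was 3776.2, 3171.4 and 3154.4, and in the SOX2 knock-down 3139.2, 2749.1 and 2436.8. The mock, NANOG knock-down and OCT4 or SOX2 knock-down arrays formed 3 tiers without overlap. The OCT4 and SOX2 arrays did not overlap on this raw scale either, with every OCT4 knock-down array above every SOX2 knock-down array. The negative-control mean was also higher on the OCT4 knock-down arrays, at 110.8 to 118.8, than on the other 9 arrays, at 93.1 to 110.0, and the part of overall array brightness in this order was not tested.

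**Figure D1:**
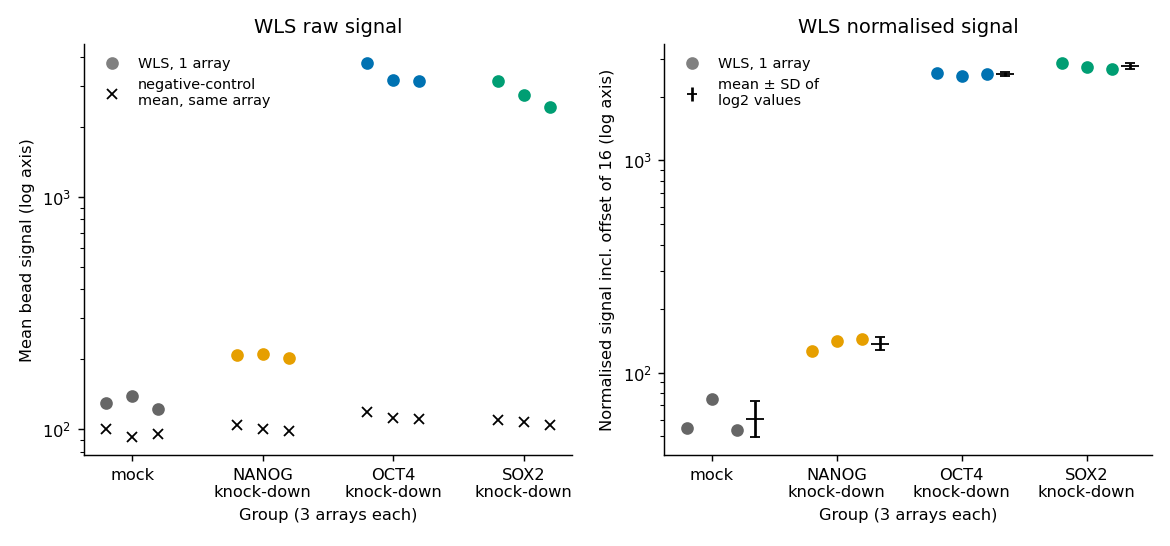
WLS on each of the 12 arrays, as raw bead signal (left; crosses mark the mean of the negative controls on the same array) and as normalised signal (right; bars give the mean ± SD of the 3 log2 values). Both vertical axes are logarithmic. The mock arrays lie just above the crosses, at raw signals of 122.2 to 139.3, the NANOG knock-down arrays at 203 to 212, and the OCT4 and SOX2 knock-down arrays at 2436.8 to 3776.2.

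After background correction and normalisation between arrays, WLS was at 54.8, 75.4 and 53.4 on the mock arrays, on a scale that includes an added offset of 16. It was at 126, 141 and 144 in the NANOG knock-down, at 2593, 2506 and 2558 in the OCT4 knock-down and at 2888, 2770 and 2703 in the SOX2 knock-down. The means were 61.2 ± 12.3 (SD, n = 3) in mock cells, 137 ± 9.51 in the NANOG knock-down, 2552 ± 44.1 in the OCT4 knock-down and 2787 ± 93.6 in the SOX2 knock-down. On this scale the coefficient of variation was 20.1% in the mock group, 6.96% in the NANOG, 1.73% in the OCT4 and 3.36% in the SOX2 knock-down. On the raw scale it was 6.58%, 2.20%, 10.5% and 12.7% in the same groups, so the order of the spreads depends on the scale. Within the mock group replicate 2 was the highest and the other 2 arrays were nearly equal.

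On the log2 scale the mean WLS level was 5.92 ± 0.28 (SD, n = 3) in mock cells and 11.32 ± 0.02 in the OCT4 knock-down. The difference was 5.40 ± 0.11 (SE), a level 42.2-fold above mock. The SOX2 knock-down had a mean of 11.44 ± 0.05 (SD) and a difference of 5.53 ± 0.11 (SE), or 46.1-fold. By fitted difference WLS ranked 7 of the 12374 probes tested in both comparisons. Of the 6 probes above it 5 were not detected on any mock array, so their fitted differences depend on the offset and the rank is not exact. All 3 arrays of either knock-down lay above all mock arrays. The median difference over all probes tested was -0.03 for the OCT4 knock-down and -0.04 for the SOX2 knock-down, and the 99th percentile was 2.56 in both.

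In the NANOG knock-down the WLS mean was 7.09 ± 0.10 (SD, n = 3) on the log2 scale, which was 1.17 ± 0.11 (SE) or 2.26-fold above mock. By fitted difference, with the same limit for probes at background in mock cells, WLS ranked 115 of 12374 in this comparison, where the median difference was 0.01 and the 99th percentile 1.14. The 3 NANOG knock-down arrays and the 3 mock arrays did not overlap. Measured on the log2 scale, the NANOG difference reached 21.7% of the OCT4 difference and 21.2% of the SOX2 difference. The OCT4 knock-down level was 18.7-fold and the SOX2 knock-down level 20.4-fold above the NANOG knock-down level.

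**Figure D2:**
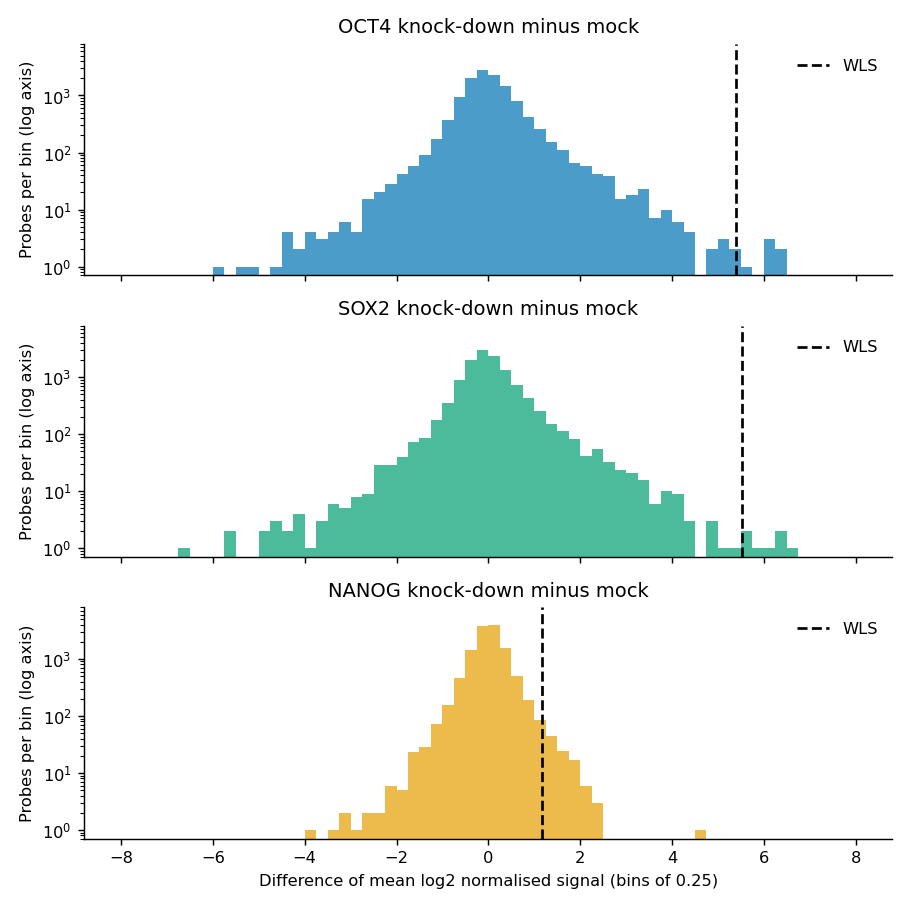
Distribution of the differences from mock in mean log2 normalised signal over the 12374 probes tested, in bins of 0.25 with a logarithmic count axis, for each knock-down. The dashed line marks WLS, which lies at 5.40 and 5.53 in the sparse upper end for the OCT4 and SOX2 knock-downs and at 1.17, inside the upper shoulder, for the NANOG knock-down.

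The size of these differences depended on how the background was treated, because the mock signal was so near it. Without any correction the raw signals with OCT4, NANOG and SOX2 silenced were 25.8-fold, 1.60-fold and 21.3-fold above mock. With the negative-control mean subtracted and no offset they were 95.2-fold, 3.13-fold and 78.0-fold above mock, since the mock values then shrank to between 27.0 and 46.2. In the deposited table of the authors' group means, which were background-subtracted and normalised by a rank-invariant method, WLS is listed at 34.5 in mock cells, 1978 in the OCT4 knock-down, 92.0 in the NANOG knock-down and 2265 in the SOX2 knock-down. These means correspond to 57.4-fold, 2.67-fold and 65.7-fold and carry no replicate error. The order mock, NANOG knock-down, then OCT4 and SOX2 knock-down was the same on each of these scales.

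The OCT4 and SOX2 knock-downs could not be placed in a stable order. After normalisation the SOX2 knock-down was 1.09-fold higher, a log2 difference of -0.13 ± 0.11 (SE) for OCT4 minus SOX2, and the groups of 3 did not overlap. On the raw scale the groups did not overlap in the opposite order. With background correction but without normalisation between arrays the log2 difference was 0.29, with the OCT4 knock-down higher. In that setting the median difference from mock over all probes was itself 0.65 in the OCT4, 0.20 in the NANOG and 0.26 in the SOX2 knock-down. Between these knock-downs limma called 0 of 12374 probes at an adjusted p under 0.01 and a change of at least 1.5-fold, while 1210 probes (9.78%) had an unadjusted p under 0.05.

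**Figure D3:**
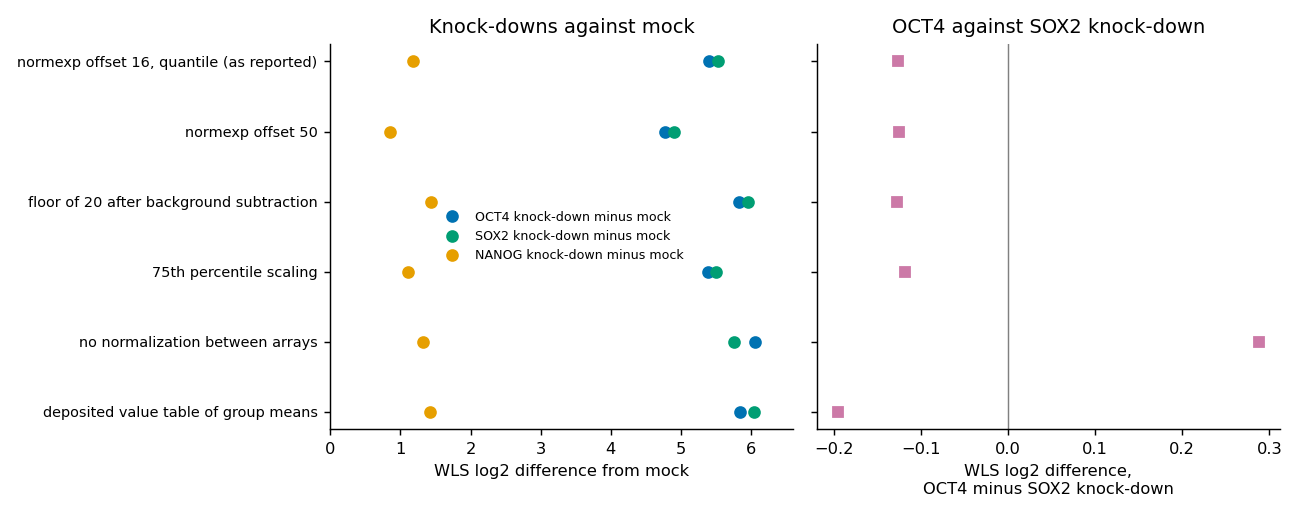
WLS log2 differences under 6 ways of treating background and normalisation, for each knock-down against mock (left) and for the OCT4 minus the SOX2 knock-down (right, line at 0). The OCT4 and SOX2 differences from mock stay between 4.77 and 6.05 and the NANOG difference between 0.85 and 1.44, whereas the difference between the OCT4 and SOX2 knock-downs lies below 0 in all but the setting without normalisation between arrays, where it is 0.29.

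The state of the cells was read from marker genes. The POU5F1 gene, which encodes OCT4, was at a normalised signal of 669, 557 and 611 in mock cells and at 39.8, 34.3 and 26.6 in the OCT4 knock-down, 18.5-fold lower. The OCT4 knock-down values lay near background, at about the level of 32.1, 28.1 and 31.3 in the SOX2 knock-down, so the 18.5-fold is not exact. POU5F1 was at least 15.2-fold lower in the SOX2 knock-down. In the NANOG knock-down POU5F1 was at 446, 438 and 488, which did not pass the test. The NANOG gene was 3.60-fold lower in the NANOG knock-down, at least 9.34-fold lower in the OCT4 knock-down and at least 8.52-fold lower in the SOX2 knock-down. The probe of the SOX2 gene was not named by the sources used here, so the SOX2 label was not checked on the arrays. The study states that its arrays did not detect SOX2, and it followed the gene by real-time PCR and the protein by western blot. Here and below, a bound ("at least") is given where a probe was not well above background on any array of the lower group.

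Of 10 listed genes 7 could be named, by 8 probes, and their summed normalised signal was 18759 to 19783 on mock arrays, 14076 to 15500 in the NANOG knock-down, 4914 to 5753 in the OCT4 knock-down and 4835 to 5203 in the SOX2 knock-down. The brighter DNMT3B probe, for a de novo DNA methyltransferase, made up a large part of these sums. A marker could be named only if the study had listed it as changed in the OCT4 or NANOG knock-down. The marker counts and sums therefore describe a preselected set, and nothing is read from their size. All 8 probes were called down with OCT4 silenced, 7 with SOX2 silenced and 5 with NANOG silenced, beside 10.7%, 10.3% and 4.02% of all probes tested. With NANOG silenced POU5F1, PODXL and LIN28A were not called, with log2 differences of -0.42, 0.14 and 0.13. Of the 7 listed mesoderm markers 5 could be named, with sums of 671 to 711 in mock cells, 2023 to 2483 in the NANOG knock-down, 6148 to 6317 in the OCT4 knock-down and 5195 to 5830 in the SOX2 knock-down. All 5 were called up with OCT4 or SOX2 silenced, beside 13.6% and 13.3% of all probes tested. With NANOG silenced 1, HAND1, was called up, beside 4.61% of all probes. COL1A1, RUNX1, ACTA2 and MSX1 were not called there, with log2 differences of 0.16, -0.07, -0.11 and 0.44. HAND1, a transcription factor of mesoderm and extraembryonic tissue, made up most of each sum, at 536 to 608 in mock cells and 1878 to 2367 in the NANOG knock-down. Of 6 trophoblast markers 2 could be named, with summed signals of 183 to 201 in mock cells, 215 to 238 in the OCT4 knock-down, 262 to 297 in the NANOG knock-down and 189 to 199 in the SOX2 knock-down, and they went in opposite directions. GATA3 was called up with OCT4 silenced (0.63) and down with NANOG silenced (-0.65), and its difference of 0.47 with SOX2 silenced was not called. TFAP2A was called down with OCT4 (-1.07) and SOX2 silenced, in the latter at least 1.71-fold, and up with NANOG silenced (1.58). None of the 5 endoderm and 4 neural markers listed could be named. The sums are of preselected genes, and HAND1 was the only mesoderm marker called with NANOG silenced, so their order of groups is not set beside that of WLS. The part of cell state in the WLS level was not tested.

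Of 112 other Wnt pathway genes listed, 29 could be named and all 29 were tested. A gene could be named only if the study had listed it as changed in the OCT4 or NANOG knock-down, so the counts below describe a preselected set and nothing is read from their size. The 29 were listed as up or down with OCT4 silenced or as up with NANOG silenced, none as down with NANOG silenced. The split between up and down with NANOG silenced may therefore be set by the naming, and nothing is read from it either. In the OCT4 knock-down 21 of the 29 were called up and 6 down, where 13.6% of all probes tested were called up and 10.7% down. In the SOX2 knock-down 18 were called up and 6 down, beside 13.3% and 10.3% of all probes. In the NANOG knock-down 12 were called up and 2 down, beside 4.61% and 4.02% of all probes. The methods' equal-variance test after Benjamini-Hochberg adjustment called 2 up and 1 down there, and limma with an offset of 50 called 8 up. Without normalisation between arrays the splits were 22 up and 2 down (OCT4), 22 and 2 (SOX2) and 15 and 2 (NANOG), beside the shifted medians given above. In the reported setting the median log2 difference of the 29 was 1.17, 1.09 and 0.48, in the same order. All 3 comparisons share the mock arrays. A call required a Benjamini-Hochberg adjusted p under 0.01 in limma over all probes tested and a change of at least 1.5-fold.

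Among 15 genes of Wnt acylation, secretion and WLS recycling, 3 were named. PORCN, the enzyme that attaches the lipid WLS recognises, was at 89.1 to 98.3 in mock cells and fell to 42.7 to 52.5 in the OCT4 knock-down and 45.5 to 48.2 in the SOX2 knock-down. PORCN could be named because the study had listed it as lower in the OCT4 knock-down on these arrays, so no p-value is given. Its log2 differences were -0.98 ± 0.11 (SE) in the OCT4 and SOX2 knock-downs. Both met the threshold for a call down, but the naming favours this and both comparisons share the mock arrays, so nothing is read from the calls. Without normalisation between arrays these differences were -0.31 and -0.57 and were not called. With NANOG silenced PORCN was at 66.3 to 88.3, a difference of -0.27 that did not pass the test.

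DOP1B, a partner of the machinery that returns WLS from endosomes, was not well above background in mock cells and was at least 2.01-fold higher in the OCT4 and at least 1.87-fold higher in the SOX2 knock-down. NOTUM, the secreted enzyme that strips the lipid from Wnt ligands, was 2.34-fold higher in the NANOG knock-down, where its arrays read 703 to 924 against 321 to 381 in mock cells. With OCT4 or SOX2 silenced its differences of -0.19 and -0.15 did not pass the test.

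The cargo of WLS was represented by 3 of 19 ligand genes. WNT5A, a ligand that mostly signals without beta-catenin, was at 26.3 to 43.3 in mock cells, where 1 of 3 arrays detected it. Its log2 differences were 1.58 ± 0.19 (SE), 1.26 and 1.57 with OCT4, NANOG and SOX2 silenced, all called up. WNT5B was at 31.9 to 51.1 in mock cells (detected on 2 of 3 arrays), and its differences of 1.73 and 1.76 in the OCT4 and SOX2 knock-downs were called up. WNT5B in the NANOG knock-down was not well above background on any array. WNT4 was not well above background in mock cells and was at least 2.01-fold higher with OCT4 silenced and at least 1.94-fold higher with SOX2 silenced. With NANOG silenced WNT4 was detected on 2 of 3 arrays, at 35.2 to 49.9 against 20.3 to 23.3 in mock cells, and was called up. No bound above 1-fold could be set for this difference, so the call rests on values near background. All 3 ligand probes were dim, with no array of any group above a normalised signal of 171.

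Of 19 receptor and co-receptor genes 5 were named. FZD2, a receptor of the Frizzled family, was at 107 to 137 in mock cells and 108 to 137 in the NANOG knock-down, but at 613 to 801 in the OCT4 and 803 to 995 in the SOX2 knock-down. These were differences of 2.53 ± 0.13 (SE) and 2.82 on the log2 scale. ROR2, a receptor for WNT5A, was called up in all 3 knock-downs with differences of 1.80, 0.71 and 1.76 for OCT4, NANOG and SOX2. FZD6 rose by 1.21 and 1.09 in the OCT4 and SOX2 knock-downs, and FZD3 rose by 1.12 in the NANOG knock-down, beside differences of 0.57 and 0.40 with OCT4 or SOX2 silenced that were not called. Of the 4 R-spondin genes 0 were named.

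Among 19 inhibitors 7 were named, with members that rose and members that fell. SFRP1, a secreted Wnt-binding antagonist, was at 103 to 141 in mock cells, 224 to 245 in the NANOG knock-down, 971 to 1084 in the OCT4 knock-down and 902 to 1142 in the SOX2 knock-down. Its differences of 3.11 ± 0.12 (SE), 0.96 and 3.15 for OCT4, NANOG and SOX2 ran in the same order of groups as those of WLS. SFRP2, of the same family, was at 2942 to 3080 in mock cells, 1096 to 1130 in the NANOG knock-down, 322 to 347 in the OCT4 knock-down and 297 to 326 in the SOX2 knock-down. Its differences of -3.18, -1.44 and -3.29 were all called, in tiers opposite to those of WLS. DKK3 rose by 2.18, 0.78 and 2.30. FRZB, another Wnt-binding antagonist, was detected on 1 of 3 mock arrays and rose by 2.05 in the NANOG and 0.72 in the OCT4 knock-down.

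Of 23 genes of the intracellular relay 8 were named. CTNNBIP1, which keeps beta-catenin from binding TCF factors, rose by 1.64 ± 0.09 (SE) and 1.82 in the OCT4 and SOX2 knock-downs, while its difference of 0.25 in the NANOG knock-down did not pass the test. TLE4, a co-repressor of TCF factors, rose by 1.17 and 1.26, whereas TLE2, of the same family, was at least 2.60-fold and 2.37-fold lower in the OCT4 and SOX2 knock-downs. TLE2 was also called down with NANOG silenced, at 43.8 to 53.7 against 88.1 to 107.7 in mock cells. DVL1, a cytoplasmic relay of Frizzled receptors, was called up with NANOG (1.12) and OCT4 (0.76) silenced, and its difference of 0.60 with SOX2 silenced was not called. TLE3 was called up in all 3 knock-downs, by 0.80 (OCT4), 0.80 (NANOG) and 0.92 (SOX2).

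Among 13 targets of beta-catenin 3 were named. TNFRSF19 was not well above background in mock cells, was at 49.4 to 50.4 in the NANOG knock-down, and reached 458 to 497 in the OCT4 and 401 to 430 in the SOX2 knock-down. These levels were at least 1.14-fold, 10.9-fold and 9.60-fold above mock, and the first was not called when arrays were scaled to the 75th percentile. LEF1, a transcription factor that works with beta-catenin, was not well above background in mock cells or in the NANOG knock-down, and it was at least 3.36-fold higher with OCT4 silenced and at least 3.34-fold higher with SOX2 silenced. CCND1, a cyclin of the G1 phase, rose by 1.26 ± 0.10 (SE), 0.71 and 1.40. Of the 29 named genes 0 were called between the OCT4 and SOX2 knock-downs.

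**Figure D4:**
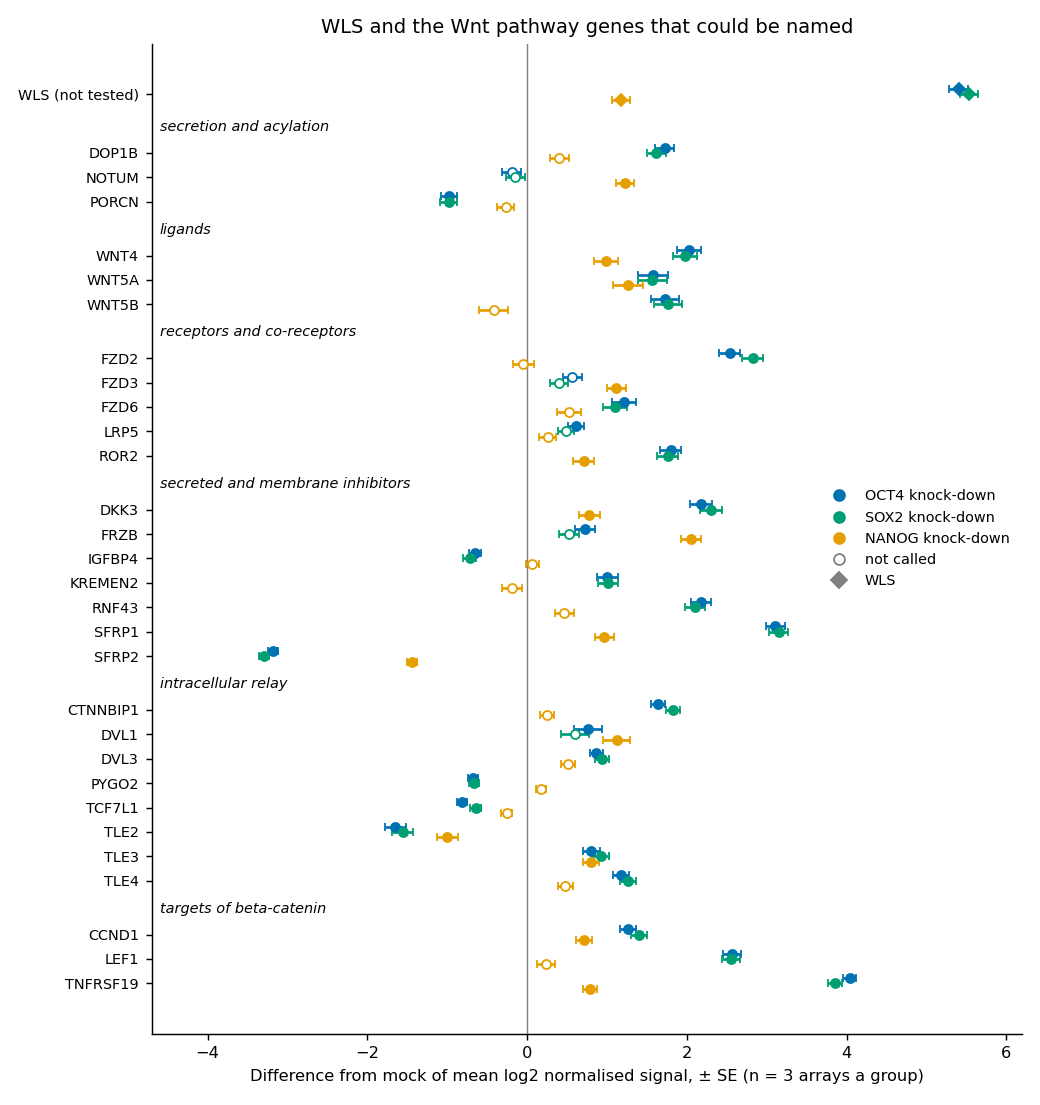
Log2 differences from mock (points) with SE (bars) for WLS (diamonds, not tested) and the 29 Wnt pathway genes that could be named, grouped by role, with OCT4, SOX2 and NANOG knock-downs in blue, green and orange and open circles for differences that were not called. WLS lies to the right of all other points at 5.40 and 5.53, TNFRSF19 follows, and SFRP2 lies farthest to the left at -3.18 and -3.29.

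Probes at least 32-fold higher than mock in both the OCT4 and the SOX2 knock-down numbered 9, a threshold chosen after the values were seen. Beside WLS they were NPPB, ANKRD1, EDN1, LIX1, GABRP, COL11A1, TAGLN and LEFTY2. WLS and TAGLN were the 2 of these detected on all 3 mock arrays, whereas LIX1 and LEFTY2 were detected on 1 mock array and the other 5 on none. For those 5 the bounds were at least 33.9-fold in both knock-downs. With NANOG silenced the log2 differences of the probes detected on a mock array were 2.29 for LIX1 and LEFTY2, 1.17 for WLS and 0.88 for TAGLN.

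The 5 probes most like WLS were found by the Euclidean distance between log2 values over the 12 arrays, each probe centred on its own mean. The nearest was TAGLN, an actin-binding protein of smooth muscle, at a distance of 0.89. TAGLN was at 63.4 to 71.6 in mock cells, 103 to 161 in the NANOG knock-down, 2300 to 3044 in the OCT4 knock-down and 2653 to 3554 in the SOX2 knock-down. Its log2 differences were 5.30 ± 0.16 (SE), 0.88 and 5.46 for OCT4, NANOG and SOX2, beside 5.40, 1.17 and 5.53 for WLS.

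It was followed by COL11A1, a fibrillar collagen chain, at 1.13, ALPK2, an alpha-type kinase, at 1.17, HTRA1, a secreted serine protease, at 1.29, and GABRP, a GABA receptor subunit, at 1.34. These 4 were not well above background in mock cells. With OCT4 and SOX2 silenced, respectively, COL11A1 was at least 35.3-fold and 38.9-fold higher, ALPK2 at least 18.1-fold and 17.2-fold, HTRA1 at least 21.8-fold and 18.0-fold, and GABRP at least 39.8-fold and 33.9-fold. With NANOG silenced ALPK2 was detected on 0 arrays, HTRA1 on 1, GABRP on 2 and COL11A1 on all 3, while WLS was detected on all 3.

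Pearson's r with WLS over the 12 arrays was 0.989 to 0.996 for these 5 probes. Since the arrays fall into tiers, a high r was common, with 102 of 12374 probes at 0.99 or above and 1344 at 0.9 or above, and it carries no test. Ranked by r instead of distance, the first 5 were PALLD, AMOT, TUBA1A, CCN2 and FHL2, and 0 of the 5 were shared. Upstream windows were listed for WLS and for 4 of its 5 nearest genes, and none of the 3 motif strings named above occurred in any of them.

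**Figure D5:**
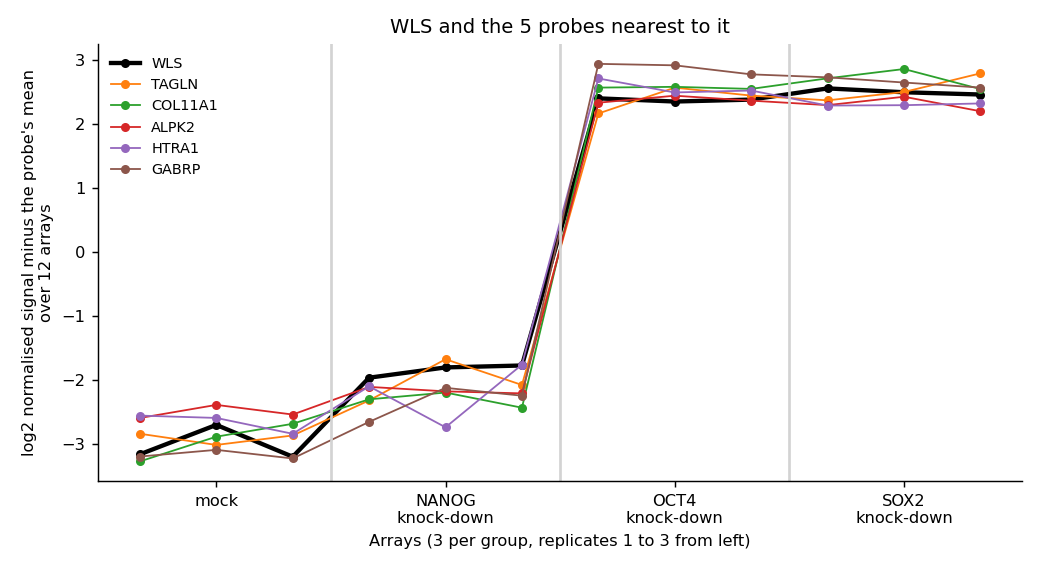
Log2 normalised signal of WLS (thick black line) and the 5 probes nearest to it on each of the 12 arrays, each probe centred on its own mean and joined across arrays as a guide to the eye, with grey lines between groups. All 6 probes step up from the mock and NANOG knock-down arrays to the OCT4 and SOX2 knock-down arrays, and in the NANOG knock-down WLS lies 1.17 above its mock mean.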

How the data were processed

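Cells, esiRNA transfection and hybridisation were described per the labels, which call the 3 arrays of a group biological replicates. The authors deposited a raw signal intensity, a bead spread and a detection score per probe for each of the 12 arrays, summarised in BeadStudio 1.0 without background subtraction. The deposited score rises to 1 with the signal and was read as 1 minus the detection p-value. The bead spread was not used in any test, and whether it is an SD or an SE is not given in the sources used here. They also deposited 1 table of mean intensity per group, after background subtraction and rank-invariant normalisation. It was used as an alternative only.

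Here the raw intensity was background-corrected by normexp, with the negative-control mean and SD inferred from the detection p-values and an offset of 16. Values were then quantile-normalised over the 12 arrays and taken as log2 (limma 3.58.1, R 4.3.3). The 4 spike-in control rows were left out. Of 47289 probes, 12374 with a detection p under 0.01 on all 3 arrays of at least 1 group were tested by lmFit and eBayes over all 4 groups, which thus share 1 estimate of the spread. A probe was called at a Benjamini-Hochberg adjusted p under 0.01 and a change of at least 1.5-fold, after the thresholds in the study's methods. On each array 23.7% to 27.2% of probes were detected, and replicate arrays correlated at 0.992 to 0.997. The number of arrays limits the precision. The fit was tested on simulated data before use.

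A bound compares the brighter group's mean with, on each dim array, the higher of the probe's own value and the lowest value among detected probes. The files do not pair probes with genes, so probes were named through the gene table issued with the study, which lists genes changed in the OCT4 or NANOG knock-down. It paired 2985 of 47293 probe rows with an accession, and 2481 of these were matched to a current RefSeq symbol. Probes outside that table were not named here. WLS itself was named in this way.

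WLS, the gene lists and the likeness measure were chosen with earlier results of these data known. Text names WLS, the silenced genes, PORCN, the 3 called genes of each Wnt list with the largest change per comparison, and the 5 probes nearest to WLS. LIX1, LEFTY2, NPPB, ANKRD1, EDN1 and the genes ranked by correlation were named after their values were seen. Promoter windows are from RefSeq (GRCh38.p14), and WLS has 2 windows, of which the outermost was used. Alternatives were another offset, a floor of 20, scaling to the 75th percentile, no normalisation, no filter on dim probes, the replicate number as a block, other thresholds and tests, the deposited means, and leaving out each array.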

Additional observations from a re-analysis of the deposited data

How the results depend on the processing

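The order mock, NANOG knock-down, then OCT4 and SOX2 knock-down held for WLS under all alternatives run. With an offset of 50 the WLS log2 differences from mock were 4.77 (OCT4), 0.85 (NANOG) and 4.90 (SOX2), and with a floor of 20 after background subtraction 5.83, 1.44 and 5.96. The deposited group means gave 5.84, 1.42 and 6.04. Without normalisation between arrays the OCT4 and SOX2 differences were 6.05 and 5.76, and OCT4 minus SOX2 turned to 0.29. The mock arrays lie near background, where the offset sets the value by construction. Leaving out each array in turn gave 5.31 to 5.56 for OCT4, 1.09 to 1.34 for NANOG, 5.44 to 5.68 for SOX2 and -0.15 to -0.10 for OCT4 minus SOX2, with the highest value of the comparisons with mock always without mock replicate 2.

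Of the Wnt genes, IGFBP4, called down in the OCT4 knock-down, turned to 0.10 without normalisation between arrays, and PORCN, TCF7L1 and PYGO2 were no longer called in the OCT4 and SOX2 knock-downs. In all 2 were called down in the OCT4 and 2 in the SOX2 knock-down without normalisation between arrays, and the methods' t-test after Benjamini-Hochberg adjustment called 2 up and 1 down in the NANOG knock-down; the cause was not tested. Leaving out arrays gave 20 to 22 up in the OCT4, 11 to 13 in the NANOG and 18 to 19 in the SOX2 knock-down. Over all probes, calls up and down without normalisation were 6941 and 295 (OCT4), 1235 and 235 (NANOG) and 3120 and 532 (SOX2), against 1686 and 1319, 570 and 498, and 1641 and 1278 in the reported setting. At an adjusted p under 0.05 with no minimum change they were 3307 and 3691, 1899 and 1886, and 3209 and 3616. For NANOG an offset of 50 gave 326 and 289, and the methods' t-test after adjustment 114 and 126. Of 160 values computed under settings other than leaving out an array, 128 kept their direction and moved by less than the spread of WLS between replicates or, for counts, by at most 1.5 times. For the WLS differences from mock alone this held in 3 of 7 settings (OCT4), 4 of 7 (NANOG) and 3 of 7 (SOX2). These include the replicate block and the setting without a filter on dim probes, which cannot change the WLS differences.

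Replicate numbers, which stand in the file headers, did not pair the arrays. Deviations of same-numbered arrays correlated at -0.30 to 0.31, with 4 of 18 pairs over 0.1. Those of differently numbered arrays of different groups correlated at -0.33 to 0.31, with 13 of 36 pairs over 0.1. With the replicate number as a block the WLS differences stayed at 5.40, 1.17 and 5.53. Every number occurs once in each group, so a block cannot change them, and nothing is read from this. The chip as a block was not run, since no chip identity was used here. No call count of the Wnt genes moved by over 1.5 times under the block or when the mock and 1 knock-down were normalised without the other groups, a setting added after seeing the data.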
